A study of Mus musculus with 11 samples.

Results

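The transcription factors that sensory neurons use in response to axon damage were followed in RNA-Seq libraries of mouse dorsal root ganglia (DRGs). The set has 9 genes, *Atf3*, *Jun*, *Sox11*, *Cebpd*, *Stat3*, *Smad1*, *Klf4*, *Klf6* and *Klf7*. These were chosen by symbol from the 36670 genes of the table, with earlier results on these libraries already known, so their levels are given as a description. All 9 were found, and all 9 were among the 15087 genes that were tested. The libraries came from 11 mice in 4 groups. There were 3 WT controls, 3 WT mice at 4 weeks after paclitaxel (PTX), 3 *Gpr37l1* KO controls (written Gpr37L1 KO in the labels) and 2 *Gpr37l1* KO mice at 4 weeks after PTX. Paclitaxel is an anticancer drug that stabilizes microtubules, and a painful neuropathy is its main side effect in sensory nerves. *Gpr37l1* encodes an orphan GPCR of satellite glial cells. The KO strain carries a targeted mutation in the whole animal, not in glia alone. Its full name in the study gives a mixed stock as the origin, and it was kept with littermates of C57BL/6 background. The methods in the study's main text give an age and PTX doses for its other experiments and do not tie them to the sequenced mice. The supplemental methods, which cover the sequencing, were not among the sources used here.

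A DRG holds the cell bodies of sensory neurons, with satellite glia around each cell body and Schwann cells along the axons. When an axon is cut or damaged, kinases of the DLK and JNK cascade carry a signal to the nucleus. There c-Jun is phosphorylated and *Atf3*, a factor that is close to silent in an intact neuron, is induced. STAT3, activated through gp130 cytokine receptors, SMAD1, activated through BMP receptors, C/EBPδ and SOX11 act in the same response. Members of the Krüppel-like family act in opposite directions on axon growth. KLF4 holds growth back, and KLF6 and KLF7 favour it. A bulk library averages over all of these cells, and fewer cells of a type and less RNA per cell cannot be told apart in it.

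Libraries held 52735648 to 80348732 counts. The targeted gene, *Gpr37l1*, was first compared as FPKM, a level corrected for the length of the transcript and the size of the library. The 6 WT libraries had 14.56 to 35.70 FPKM of it. KO controls had 0.21 to 0.29 FPKM, while 0.60 and 1.15 FPKM were left in KO PTX mice 2 and 3. In each group the library numbered 3 was labelled female and the others male, so sex and that number cannot be told apart. The KO PTX libraries were numbered 2 and 3 in the descriptions and 1 and 2 in the titles, and the former numbers are used. KO control 3 did not match its label fully. It had 0.05 FPKM of *Xist*, against 8.12 to 9.13 FPKM in the other libraries labelled female, and 0.02 FPKM of the Y-linked *Ddx3y*, against 5.62 to 9.84 FPKM in the male libraries. WT control 1 also stood apart, with 2.97% of its counts in *CT010467*, while the highest gene of every other library was *mt-Co1*, at 1.16% to 1.54%. Summed FPKM of 8 sensory neuron markers was 4077 to 5435 and that of 6 satellite glial markers 236 to 376, and no marker of either list was at 0 in every library. Markers of skeletal muscle summed to 3.22 to 561 FPKM and those of central glia to 2.27 to 22.5 FPKM, so these markers were uneven between libraries.

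Promoter sequence is shown for the 4 factors whose window holds a motif that factors of this set or their partners bind. RefSeq windows of GRCm38.p6, from 250 bases before to 50 bases after the annotated start, were given for 8 of the 9 genes, and *Cebpd* was without one. A total of 5 motifs was searched on both strands: TGANTCA and TGANNTCA, sites of AP-1 and of the ATF and CREB family, TTACGTCA, a variant of the cyclic AMP response element, TTGCATCA, a composite site of C/EBP and ATF factors, and TTCNNNGAA, a STAT site. No matches overlapped. Capitals mark the matches in these sequences, which are printed 5′ to 3′ on the strand of the gene.
Atf3 promoter, minus strand, chr1:191183284-191183583: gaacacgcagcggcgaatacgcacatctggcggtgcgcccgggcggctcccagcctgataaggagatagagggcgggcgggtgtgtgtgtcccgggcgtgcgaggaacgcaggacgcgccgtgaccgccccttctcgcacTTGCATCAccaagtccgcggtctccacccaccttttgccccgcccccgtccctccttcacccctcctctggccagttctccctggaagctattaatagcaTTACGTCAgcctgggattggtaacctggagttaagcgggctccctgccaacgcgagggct
Jun promoter, minus strand, chr4:95052173-95052472: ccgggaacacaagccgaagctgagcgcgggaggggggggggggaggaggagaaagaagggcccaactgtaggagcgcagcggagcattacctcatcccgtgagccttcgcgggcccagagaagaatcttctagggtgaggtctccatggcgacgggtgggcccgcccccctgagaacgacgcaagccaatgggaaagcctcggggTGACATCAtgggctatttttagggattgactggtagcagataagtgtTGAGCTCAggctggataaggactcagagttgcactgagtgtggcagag
Sox11 promoter, minus strand, chr12:27342669-27342968: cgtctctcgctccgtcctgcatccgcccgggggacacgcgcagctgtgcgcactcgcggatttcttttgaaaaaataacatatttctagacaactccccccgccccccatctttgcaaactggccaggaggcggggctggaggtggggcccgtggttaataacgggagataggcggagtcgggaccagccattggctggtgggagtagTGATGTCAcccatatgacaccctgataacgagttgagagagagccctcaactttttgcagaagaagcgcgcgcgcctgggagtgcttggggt
Klf6 promoter, plus strand, chr13:5861239-5861538: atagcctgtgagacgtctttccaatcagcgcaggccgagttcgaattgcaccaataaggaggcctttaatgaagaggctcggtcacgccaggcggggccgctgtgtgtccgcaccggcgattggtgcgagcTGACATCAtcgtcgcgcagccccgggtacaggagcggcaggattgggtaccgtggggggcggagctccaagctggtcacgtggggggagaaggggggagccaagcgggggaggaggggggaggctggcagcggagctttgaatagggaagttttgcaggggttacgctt

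The *Atf3* window held TTACGTCA at positions -10 to -3 and TTGCATCA at -110 to -103 relative to the annotated start. Of 32851 promoter windows, 0.499% held TTACGTCA and 0.895% held TTGCATCA. The *Jun* window held TGANNTCA at -45 to -38, as TGACATCA, and at 2 to 9, as TGAGCTCA. *Sox11* held it at -42 to -35, as TGATGTCA, and *Klf6* at -119 to -112, as TGACATCA. This motif was in 14.1% of all windows. TGANTCA and TTCNNNGAA, found in 7.81% and 8.3% of all windows, were not matched in any of the 8. The windows of *Klf4*, *Klf7*, *Smad1* and *Stat3* held none of the 5 motifs. The *Atf3* window lies inside the gene as the table has it, since that gene model extends to a start further upstream.

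Levels of the 9 factors differed widely. Averaged over the 11 libraries, *Stat3* was highest at 39.1 ± 2.38 FPKM (SD, n = 11). *Klf7* at 33.5 ± 3.4 FPKM and *Jun* at 32.4 ± 7.14 FPKM (SD, n = 11 each) came next, and their difference was smaller than either SD. *Atf3* had 14.3 ± 18.1 FPKM and *Klf6* 13.4 ± 1.68 FPKM (SD, n = 11 each), which did not differ beyond their spread. *Smad1* had 6.88 ± 0.682 FPKM (SD, n = 11). The lowest were *Klf4* at 1.91 ± 0.432, *Sox11* at 1.63 ± 1.01 and *Cebpd* at 1.18 ± 0.362 FPKM (SD, n = 11 each), and their SDs overlapped. Within single libraries *Atf3* ranked from 1 to 7 among the 9, while *Klf6* ranked 4 or 5 and *Smad1* 5 or 6 throughout. The ratio of the highest to the lowest library was 31.7 for *Atf3*, 5.65 for *Sox11*, 2.4 for *Cebpd*, 2.27 for *Klf4* and 2.06 for *Jun*. It was 1.26 to 1.55 for *Stat3*, *Smad1*, *Klf7* and *Klf6*.

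**Figure D1:**
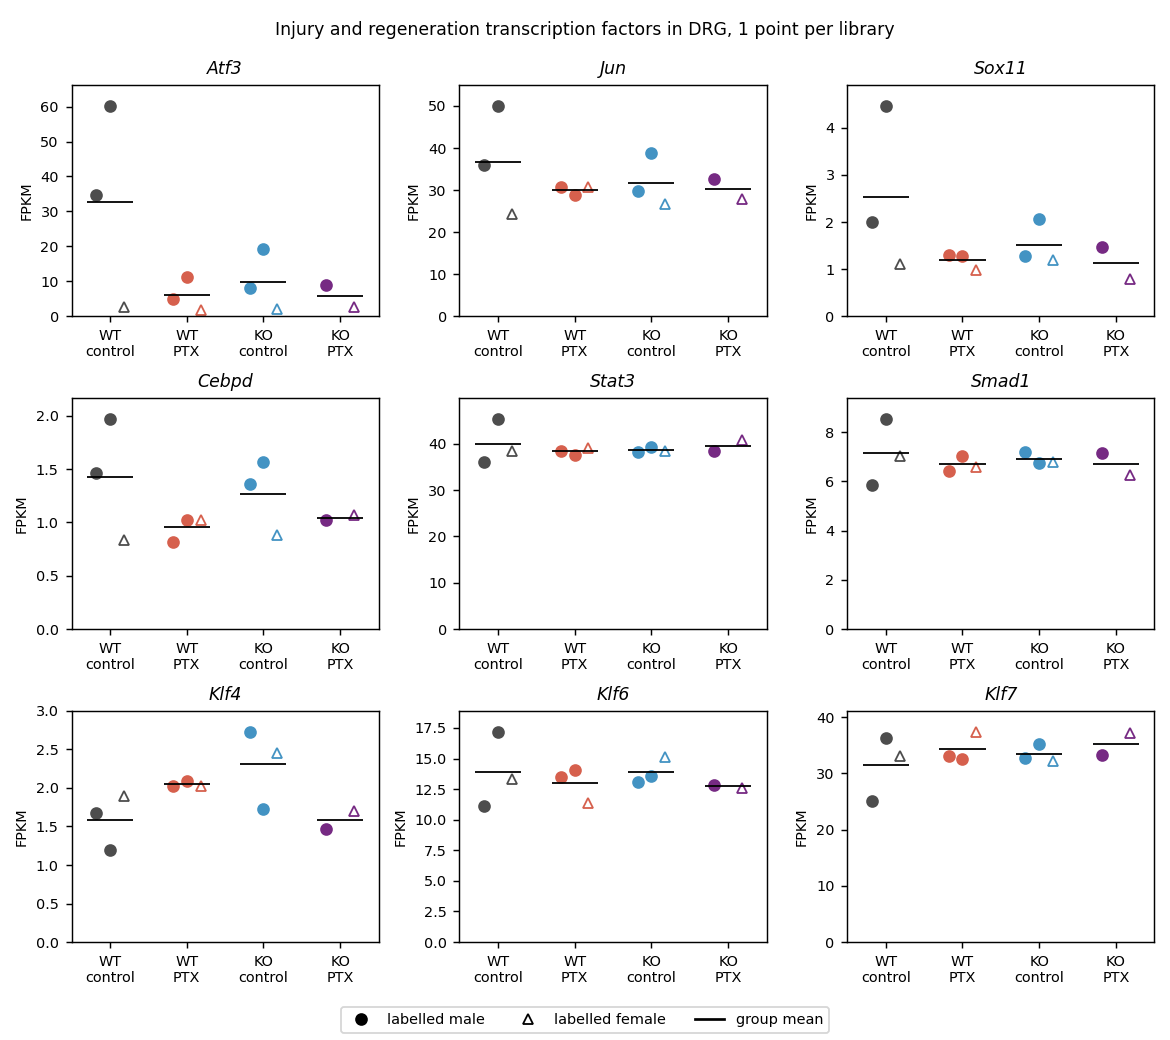
FPKM of each of the 9 factors (y axis, linear, from 0) in every library of the 4 groups (x axis). Filled circles are libraries labelled male, open triangles libraries labelled female, and bars group means. *Atf3* is at 34.78 and 60.16 FPKM in the male WT controls and at 1.90 to 2.79 FPKM in the 4 libraries labelled female.

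*Atf3* (ENSMUSG00000026628, chromosome 1, 191170296 to 191218039, minus strand, GRCm38) encodes the bZIP factor used most often as a mark of an injured sensory neuron. Its FPKM was 34.78, 60.16 and 2.79 in WT controls 1, 2 and 3, and 5.09, 11.32 and 1.90 in WT PTX mice 1, 2 and 3. It was 8.22, 19.35 and 2.09 in KO controls 1, 2 and 3, and 8.89 and 2.67 in KO PTX mice 2 and 3. The groups therefore overlapped in every comparison. Both male WT controls were above all other libraries, and the lowest library of each group was the one labelled female. The group means were 32.6 ± 28.7 FPKM in WT controls, 6.1 ± 4.79 FPKM in WT PTX mice and 9.89 ± 8.75 FPKM in KO controls (SD, n = 3 each). The coefficient of variation within groups was 76.1% to 88.5%. Counts behind these levels ran from 249 to 10481, so counting error was small beside the spread between mice.

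*Jun* (ENSMUSG00000052684, chromosome 4, 95049034 to 95052222, minus strand) encodes the AP-1 factor that JNK phosphorylates and that pairs with ATF3. It was present at a high level in every library. Its FPKM was 36.03, 50.00 and 24.24 in WT controls 1, 2 and 3, and 30.65, 28.88 and 30.78 in WT PTX mice. KO controls had 29.91, 38.83 and 26.61 FPKM, and KO PTX mice 2 and 3 had 32.58 and 27.88 FPKM. WT controls held both the highest and the lowest of the 11 values, and the mean of the WT PTX mice was 30.1 ± 1.06 FPKM (SD, n = 3). *Jun* overlaps the antisense gene *Junos*.

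*Sox11* (ENSMUSG00000063632, chromosome 12, 27334264 to 27342574, minus strand) encodes an HMG-box factor of developing neurons that is expressed again in regeneration. WT controls 1, 2 and 3 had 2.01, 4.46 and 1.12 FPKM, and WT PTX mice had 1.30, 1.28 and 0.99 FPKM. KO controls had 1.27, 2.07 and 1.19 FPKM, and KO PTX mice 2 and 3 had 1.48 and 0.79 FPKM. WT control 2 was the highest by a wide margin. As for *Atf3*, the library labelled female was the lowest of each group.

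*Cebpd* (ENSMUSG00000071637, chromosome 16, 15887286 to 15891031, plus strand) encodes C/EBPδ, a bZIP factor of the acute-phase and cytokine response. It had 1.46, 1.97 and 0.84 FPKM in WT controls, 0.82, 1.02 and 1.02 FPKM in WT PTX mice, 1.36, 1.57 and 0.88 FPKM in KO controls, and 1.02 and 1.07 FPKM in KO PTX mice 2 and 3. The 4 male control libraries of both genotypes were above all other libraries. The female controls were at the level of the PTX groups. *Cebpd* overlaps *Spidr* on the opposite strand.

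The cytokine and BMP effectors were steady. *Stat3* (ENSMUSG00000004040, chromosome 11, 100885098 to 100939540, minus strand) had 36.01, 45.34 and 38.35 FPKM in WT controls, and 37.61 to 40.85 FPKM in the other 8 libraries. *Smad1* (ENSMUSG00000031681, chromosome 8, 79338395 to 79399518, minus strand) had 5.87, 8.54 and 7.03 FPKM in WT controls, and 6.28 to 7.18 FPKM in the other 8. For both genes the lowest and the highest of the 11 values were WT controls 1 and 2. These are transcript levels, and the phosphorylation that activates either protein was not measured. *Stat3* overlaps *Stat5a* on the opposite strand.

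Among the Krüppel-like factors, the repressor of growth varied most. *Klf4* (ENSMUSG00000003032, chromosome 4, 55527143 to 55532466, minus strand) had 1.67, 1.20 and 1.89 FPKM in WT controls and 2.03, 2.09 and 2.03 FPKM in WT PTX mice. KO controls had 2.73, 1.73 and 2.46 FPKM, and KO PTX mice 2 and 3 had 1.47 and 1.70 FPKM. All WT PTX mice were thus above all WT controls, as for 6.81% of all tested genes, and both KO PTX mice were below all KO controls, as for 10.4%. Both patterns together were found in 0.444% of the tested genes. In KO mice the nearest values were 1.70 and 1.73 FPKM. *Klf6* (ENSMUSG00000000078, chromosome 13, 5861482 to 5870394, plus strand) had 11.11, 17.19 and 13.34 FPKM in WT controls and 11.37 to 15.10 FPKM in the other 8 libraries. *Klf7* (ENSMUSG00000025959, chromosome 1, 64029447 to 64121491, minus strand) had 25.01, 36.25 and 33.17 FPKM in WT controls and 32.20 to 37.41 FPKM in the others, so that WT control 1 was its lowest library. *Klf7* overlaps a miRNA gene on its own strand and noncoding genes on the other.

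The spread between mice of the same group differed greatly among the factors. The within-group SD of log2 CPM was 1.75 for *Atf3*, larger than that of 99.3% of the tested genes. It was 0.65 for *Sox11*, 0.43 for *Cebpd*, 0.34 for *Jun* and 0.25 for *Klf4*, at percentiles 95.8, 89.6, 84.1 and 75.4. *Klf6* at 0.19, *Klf7* at 0.17, *Smad1* at 0.15 and *Stat3* at 0.10 were close to or below the median of all tested genes, 0.16. Once the labelled sex was fitted as well, the SD of *Atf3* was 0.80 and that of *Sox11* 0.48, still at percentiles 97.3 and 92.4.

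**Figure D2:**
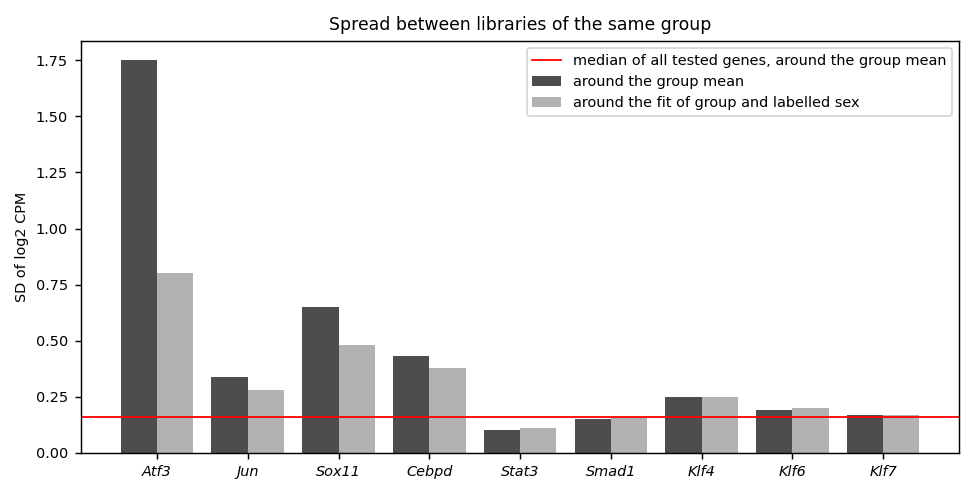
SD of log2 CPM (y axis, from 0) of each factor (x axis) between libraries of the same group, around the group mean (dark bars) and around a fit of group and labelled sex (light bars). The line is the median of all tested genes, 0.16, and *Atf3* stands at 1.75 and 0.80.

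The first comparison asked what PTX did in WT mice, with edgeR's quasi-likelihood test, all 11 libraries in 1 fit and the labelled sex as a covariate. The 5 factors that vary between mice had the larger differences, but none of the 9 passed an adjusted p under 0.05. Across all tested genes 0.00663% passed. The log2 fold change of *Atf3* was -2.02 ± 0.52 (SE, edgeR adjusted p = 0.238), and that of *Sox11* was -0.98 ± 0.32 (SE, adjusted p = 0.288). These were the 2 factors with an unadjusted p under 0.05, which 13.5% of all genes reached. DESeq2 called 2.05% of all genes and none of the 9, with an adjusted p of 0.0523 for *Atf3*. *Cebpd* had -0.51 ± 0.28, *Jun* -0.25 ± 0.19 and *Klf4* 0.38 ± 0.20 (SE). *Klf4* was the only factor with no overlap in FPKM between these groups, with 6.81% of all genes likewise higher in every WT PTX mouse. *Klf7* had 0.12 ± 0.12, *Klf6* -0.10 ± 0.14, *Smad1* -0.10 ± 0.12 and *Stat3* -0.06 ± 0.08 (SE), each within 1.5 SE of 0. With 1 library left out, these ran from -0.01 to 0.27, -0.25 to 0.09, -0.23 to 0.05 and -0.12 to 0.05, in that order. The median over the 9 factors was -0.10, beside -0.006 over all tested genes.

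The PTX value of *Atf3* in WT mice changed with the WT controls in the fit. It was -1.52 without WT control 2 and -2.51 without WT control 3. With both male WT controls left out, a choice made after the values were seen, it was -0.61, and that of *Sox11* was -0.28. Only 1 WT control, labelled female, is then left and is assumed to vary like the other groups, so these are values without a test. With the male libraries alone it was -2.55 for *Atf3* (adjusted p = 0.247) and -1.35 for *Sox11*. Without WT control 2, *Sox11* was at -0.46, *Jun* at -0.02, *Klf4* at 0.22 and *Cebpd* at -0.28. Without WT control 3, *Jun* was at -0.46. *Cebpd* was at -0.79 without WT control 3, -0.33 without WT PTX mouse 1 and -0.80 without WT PTX mouse 3. Summed macrophage markers were 40.4, 40.4 and 30.7 FPKM in WT controls 1, 2 and 3 and 22.0 to 27.0 FPKM in WT PTX mice, and all 8 markers had a negative log2 fold change, with a median of -0.58. By unadjusted p 7 of the 8 were lower, against 13.5% of all genes, and DESeq2 called 4, against 2.05%, and edgeR none after adjustment. Sensory neuron markers summed to 5232, 5435 and 4421 FPKM in WT controls and to 4451, 4611 and 4077 FPKM in WT PTX mice. Of the 8, 5 were negative, 4 were lower by unadjusted p and 1 by DESeq2, with a median of -0.13. All 8 skeletal muscle markers had a negative log2 fold change, with a median of -2.79 and none at an unadjusted p under 0.05. The 4 tested neutrophil markers, with a median of -0.99, and the 5 red cell markers, with -0.49, were likewise negative throughout without reaching that p. Satellite glial markers summed to 346, 376 and 282 FPKM in WT controls and to 308, 328 and 252 FPKM in WT PTX mice. Of these 6, 1 was lower by unadjusted p and 1 by DESeq2, with a median of 0.06. Of the 4 tested central glia markers, 1 was higher by unadjusted p and 1 by DESeq2, while 3 were negative, with a median of -0.71. The part of these markers in the differences of the factors was not tested.

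In KO mice, PTX was compared with control in the same fit. None of the 9 factors passed, with 0.00663% of all genes past the threshold. *Atf3* had a log2 fold change of -0.11 ± 0.58 and *Sox11* one of -0.34 ± 0.36 (SE, edgeR adjusted p = 0.999 each). *Klf4* had -0.57 ± 0.22 (SE, adjusted p = 0.999) and was the 1 factor with an unadjusted p under 0.05, against 4.32% of all genes. *Klf4* and *Klf6* were lower in both KO PTX mice than in every KO control, as were 10.4% of all genes. DESeq2 called 0.192% of all genes and none of the 9. The direction of *Atf3* turned with the KO PTX mouse left out. It was -0.71 without KO PTX mouse 3 and 0.50 without KO PTX mouse 2. *Cebpd* was at -0.46 and 0.16 likewise. *Sox11* ran from -0.54 without KO control 1 to -0.19 without KO control 3. The remaining factors lay between -0.17 for *Cebpd* and 0.06 for *Klf7*. The median over the 9 was -0.11. The PTX side of this comparison is 2 mice, 1 of each labelled sex. All 6 markers of fibroblasts and meninges had a negative log2 fold change for PTX in KO mice, with a median of -0.38 and 3 of them lower by unadjusted p, against 4.32% of all genes. Their sum was 144, 127 and 160 FPKM in KO controls 1, 2 and 3 and 81.5 and 139 FPKM in KO PTX mice 2 and 3. The 6 endothelial markers had a median of -0.23, with 1 lower by unadjusted p. Of the 4 tested markers of central glia 3 were higher by unadjusted p and none lower, with a median of 2.60, and the list summed to 3.84, 4.33 and 2.75 FPKM in KO controls and to 9.92 and 22.5 FPKM in KO PTX mice 2 and 3. All 8 skeletal muscle markers were negative, with a median of -1.72 and 1 lower by unadjusted p. The 4 tested neutrophil markers, with a median of -1.14, and the 5 red cell markers, with -0.29, were all negative, with none lower by unadjusted p. Of the 6 markers of myelinating Schwann cells 5 were negative, with a median of -0.21 and 1 lower by unadjusted p. The part of these markers in the differences of *Klf4* and the other factors was not tested.

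The effect of the deletion was asked in controls and again after PTX. In controls, *Atf3* had a log2 fold change of -1.47 ± 0.50 for KO against WT (SE, edgeR adjusted p = 0.657) and *Klf4* one of 0.54 ± 0.20 (SE, adjusted p = 0.657). Both had an unadjusted p under 0.05, as had 7.54% of all genes, and neither passed after adjustment, which 0.00663% did. Each KO control was below the WT control of the same number for *Atf3* and above it for *Klf4*, though the labels state no pairs. With a block for the replicate number, both had an edgeR adjusted p of 0.682. *Sox11* had -0.64 ± 0.32 (SE). Without WT control 2, *Atf3* was at -0.96 and *Sox11* at -0.12, and without KO control 1 *Sox11* was at -0.41 and *Klf4* at 0.35. With WT control 3 as the only WT control left, the fitted values, which have no test, were -0.03 for *Atf3*, 0.06 for *Sox11* and 0.37 for *Klf4*. DESeq2 called 0.278% of all genes and none of the 9. Of the 6 endothelial markers 3 were higher by unadjusted p, against 7.54% of all genes, with a median of 0.25. Of the 8 macrophage markers 3 were lower, with a median of -0.32 and 7 of the 8 negative, and their sum in KO controls was 27.5, 31.5 and 29.3 FPKM. Of the 8 neuron markers 2 were lower and 4 were negative, with a median of -0.08. The part of these markers was not tested. After PTX, *Atf3* was at 0.44 ± 0.57 (SE, adjusted p = 0.993) and *Klf4* at -0.41 ± 0.22 (SE, adjusted p = 0.993). The direction of *Atf3* depended on 1 library, with -0.18 without KO PTX mouse 3 and 1.04 without KO PTX mouse 2. All 6 markers of fibroblasts and meninges were negative here too, with a median of -0.33, and 2 of the 4 tested central glia markers were higher by unadjusted p, with a median of 2.49. Without WT PTX mouse 1 or 3 *Atf3* was at 0.14 or 0.81. None of the 9 had an unadjusted p under 0.05 there, against 3.55% of all genes, and 0.0133% of all genes passed. DESeq2 called 0.0663% and none of the 9. *Klf4* was lower in both KO PTX mice than in every WT PTX mouse, a pattern shown by 9.58% of all genes.

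The design also asks whether PTX acted differently in KO and WT mice. The difference of the log2 fold changes, KO minus WT, was 1.91 ± 0.75 for *Atf3* and -0.95 ± 0.30 for *Klf4* (SE, edgeR adjusted p = 0.724 each). They were the 2 factors with an unadjusted p under 0.05, against 6.30% of all genes. No factor passed after adjustment, with 0.00663% of all genes past the threshold by edgeR and 0.0795% by DESeq2. With WT control 3 as the only WT control, the difference was 0.36 for *Atf3* and -0.76 for *Klf4*, again without a test. It was 1.26 for *Atf3* without KO PTX mouse 3. Of the 8 macrophage markers 3 were higher in this difference by unadjusted p and all were positive, with a median of 0.41, and of the 4 tested central glia markers 3 were higher, with a median of 3.42. Of the 6 markers of fibroblasts and meninges 2 were lower, with a median of -0.51. Their part in the differences of *Atf3* and *Klf4* was not tested. Over both genotypes together, PTX gave -1.07 ± 0.40 for *Atf3* and -0.66 ± 0.25 for *Sox11* (SE, edgeR adjusted p = 0.474 each). These 2 had an unadjusted p under 0.05, against 9.36% of all genes. Again none of the 9 passed, with 0.0133% of all genes called by edgeR and 0.829% by DESeq2. Without WT control 2, *Sox11* was at -0.41. With both male WT controls left out, *Atf3* was at -0.43 and *Sox11* at -0.32, without a test. Lower by unadjusted p were 5 of 8 macrophage markers, 2 of them by DESeq2, 4 of 8 neuron markers and 6 of 8 skeletal muscle markers. No other neuron marker was negative, and the median of the 8 was -0.08. The part of all these markers was not tested. These comparisons share groups, so their values are not independent of each other.

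**Figure D3:**
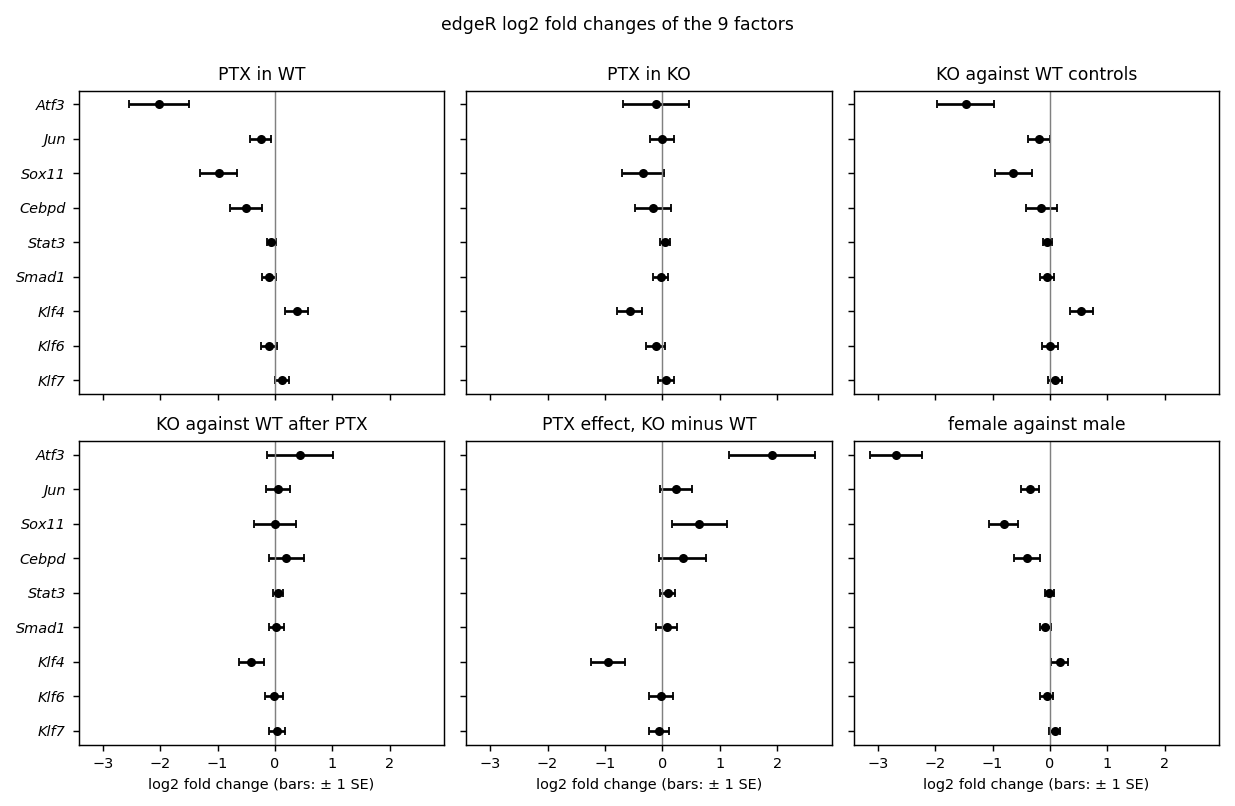
Log2 fold changes of the 9 factors (x axis, points) with 1 SE to each side (bars), in 5 of the comparisons between groups and between libraries labelled female and male. *Atf3* has the widest bars and ranges from -2.68 in female against male to 1.91 in the PTX effect of KO minus WT.

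For *Atf3*, the largest log2 fold change in the fit of all libraries was between the labelled sexes. The order turned without WT control 3, with -2.51 for PTX in WT mice and -2.23 for female against male. The comparison of the labelled sexes was added after the values had been seen, so it is a description of these libraries. The mean of the male libraries was 17, 4.32 and 6.6 times the female library in WT controls, WT PTX mice and KO controls, and the male KO PTX mouse was at 3.33 times the female one. *Sox11* gave ratios of 2.89, 1.3, 1.4 and 1.87 in the same order. *Jun* gave 1.77, 0.967, 1.29 and 1.17, so WT PTX mice went the other way. All 4 libraries labelled female were below all 7 labelled male for *Atf3* and *Sox11*, and for 0.583% of all tested genes. Summed markers of sensory neurons and of satellite glia were split the same way. Those of sensory neurons were at 4077 to 4421 FPKM in female and 4451 to 5435 FPKM in male libraries, and those of satellite glia at 236 to 282 and 284 to 376 FPKM. *Tubb3* and *Calca*, of the 8 neuron markers, were likewise below all male libraries, and DESeq2 called 2 of the 8 lower. Taken singly, 0 of the 6 satellite glial markers were below all male libraries. Of these 6, 4 were negative, 1 was lower by unadjusted p and 1 by DESeq2, with a median of -0.03. Of the 4 tested neutrophil markers 3 were lower by unadjusted p, with a median of -1.24. Markers of fibroblasts and meninges went the opposite way, with 3 of 6 higher by unadjusted p, all 6 positive and a median of 0.38. The part of these markers in the result was not tested. In the fit across groups, the log2 fold change of female against male was -2.68 ± 0.45 for *Atf3* (SE, edgeR adjusted p = 0.126). DESeq2 gave an adjusted p of 2.18e-05. It was -0.81 ± 0.26 for *Sox11*, -0.35 ± 0.15 for *Jun* and -0.40 ± 0.22 for *Cebpd* (SE). Without WT control 3 the values were -0.18 for both *Jun* and *Cebpd*, -0.57 for *Sox11* and -2.23 for *Atf3*. *Atf3*, *Jun* and *Sox11* had an unadjusted p under 0.05, against 8.44% of all genes. By edgeR none of the 9 and 0.0398% of all genes passed, and by DESeq2 *Atf3* and 0.815% of all genes. Without KO control 3, whose *Xist* did not match its label, the value of *Atf3* was -2.65 and that of *Sox11* -0.92.

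Across libraries, the factors that varied did so together. Pearson's r on log2(FPKM + 1) over the 11 libraries was 0.86 for *Atf3* and *Jun*, 0.89 for *Atf3* and *Sox11*, 0.92 for *Jun* and *Sox11*, and 0.86 for *Atf3* and *Cebpd*. *Klf4* ran opposite, with r of -0.57 to *Atf3* and -0.67 to *Jun*. *Stat3* and *Smad1* had r of 0.28 and 0.35 with *Atf3*. These values describe libraries that share groups and depth. WT control 2 weighed on them: without it r was 0.88 for *Atf3* and *Sox11* and 0.77 for *Atf3* and *Jun*, but -0.32 for *Atf3* and *Klf4*, -0.40 for *Jun* and *Klf4*, -0.61 for *Atf3* and *Stat3* and -0.24 for *Atf3* and *Smad1*. Among the 7 male libraries alone, WT control 2 included, r was 0.90 for *Atf3* and *Sox11* and 0.87 for *Atf3* and *Jun*. In these it was -0.68 for *Atf3* and *Klf4*, -0.79 for *Jun* and *Klf4*, 0.52 for *Atf3* and *Stat3* and 0.31 for *Atf3* and *Smad1*.

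The tested genes most like each factor by the same measure were named without a test. *Sprr1a*, which encodes a small proline-rich protein of regenerating axons, had r of 0.99 with *Atf3*, and *Cckbr*, a cholecystokinin receptor, had 0.97. *Jun* was most like *Stmn2*, a microtubule regulator of growth cones, at 0.98 and *Arpc2*, of the actin-nucleating Arp2/3 complex, at 0.96. *Sox11* was most like *Myo10* at 0.98, the myosin of filopodia, and *Avpr1a* at 0.97. *Cebpd* was most like *Cckar* at 0.94 and *Cckbr* at 0.93. For *Stat3* they were *Gbp2*, an interferon-induced GTPase, at 0.95 and *Klf10* at 0.93. For *Smad1* they were *Eaf1* at 0.95 and *Chmp1b* at 0.93. *Klf4* had *Mpzl2* at 0.92 and *Tram1* at 0.91, *Klf6* had *Nsa2-ps1* and *Tle3* at 0.93, and *Klf7* had *Dst* and *Sgtb* at 0.97.

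*Sprr1a*, which was picked as the gene most like *Atf3* in these libraries, had the pattern of *Atf3* in larger steps. It had 57.28, 117.59 and 0.23 FPKM in WT controls 1, 2 and 3, and 1.38, 14.94 and 0.21 FPKM in WT PTX mice. KO controls had 7.67, 27.57 and 0.09 FPKM, and KO PTX mice 2 and 3 had 9.32 and 0.24 FPKM. The 4 libraries labelled female were thus near 0 for it, while the male ones followed the order of *Atf3* in the plot of log2 levels, with KO control 1 and KO PTX mouse 2 close together.

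**Figure D4:**
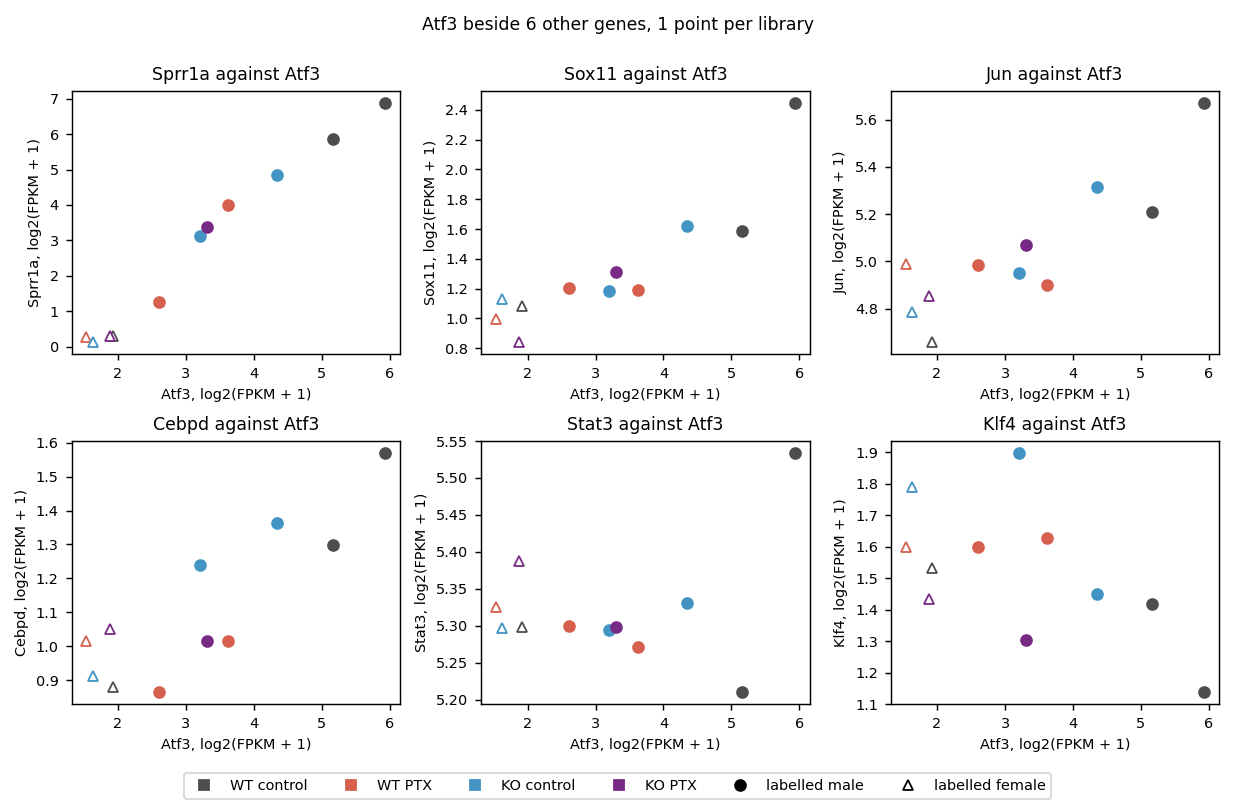
Log2(FPKM + 1) of 6 genes (y axes) against that of *Atf3* (x axes), 1 point per library, coloured by group, with filled circles for male and open triangles for female labels. *Sprr1a*, picked as the gene most like *Atf3*, follows it (r = 0.99). *Sox11*, *Jun* and *Cebpd* follow *Atf3* with more scatter (r = 0.89, 0.86 and 0.86), and *Klf4* runs against it (r = -0.57).

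The other genes of these pathways were counted from lists written with earlier results known. In the fit reported here, none of their tested members passed edgeR's adjusted threshold in any comparison. In female against male libraries edgeR called *Sprr1a* with no filter on low values (adjusted p = 0.0162) and without WT PTX mouse 1 (0.00495), and *Nts* with no filter (0.0248) and without WT PTX mouse 1 (0.0377) or 3 (0.0237). Among 13 tested AP-1, ATF and CREB partners, 4 were lower and none higher after PTX in WT mice at an unadjusted p under 0.05, and DESeq2 called 2 of them, both lower. Over all tested genes, in either direction, the shares were 13.5% and 2.05%. *Atf4*, the factor of the integrated stress response, was one. It had 70.21, 70.87 and 71.73 FPKM in WT controls and 45.89 to 57.24 FPKM in all other libraries, with a log2 fold change of -0.47 ± 0.09 for PTX in WT (SE, edgeR adjusted p = 0.203). DESeq2 also called it for KO against WT controls, at -0.44 (adjusted p = 0.00987), and for PTX over both genotypes, at -0.27 (adjusted p = 0.0379). Unlike *Atf3*, it was at the same level in male and female WT controls. *Jund*, a partner in AP-1 that is expressed without stimulation, had -0.23 ± 0.17 (SE).

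The kinase list stayed within a narrow range. Its 12 genes summed to 333 to 353 FPKM per library, and at an unadjusted p under 0.05, reached by 13.5% of all genes, 2 were higher and 2 lower after PTX in WT mice. *Mapk8ip1* and *Mapk8ip2*, scaffold proteins of the JNK cascade, had log2 fold changes of -0.16 ± 0.06 and -0.06 ± 0.05 (SE). Of 13 tested genes of gp130, JAK and STAT signalling, 1 was higher and 3 were lower by the same measure. *Lifr*, the receptor for leukemia inhibitory factor, had 0.16 ± 0.09 and *Jak1* 0.20 ± 0.08 (SE). *Socs3*, the feedback inhibitor that STAT3 induces, had -0.88 ± 0.27 (SE). It was the 1 gene of the list called by DESeq2 (adjusted p = 0.0371), against 2.05% of all genes. Of 14 tested BMP and SMAD genes, 1 was lower by unadjusted p for PTX in WT mice, against 13.5% of all genes, and 1 was higher and 4 were lower for PTX over both genotypes, against 9.36%. *Id3*, a BMP target, had -0.16 ± 0.22 and the receptor *Bmpr2* 0.19 ± 0.10 (SE).

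Relatives of the factors gave few differences for PTX in WT mice. No other KLF gene of 10 tested and no other SOX gene of 5 had an unadjusted p under 0.05, against 13.5% of all genes, and 1 of 4 other C/EBP genes did, being lower. *Klf9* and *Klf13* had log2 fold changes of 0.17 ± 0.12 and -0.02 ± 0.08 (SE). *Sox10*, of glia, had -0.01 ± 0.08 and *Sox2* 0.17 ± 0.13 (SE). *Cebpz* and *Cebpg* had 0.11 ± 0.08 and -0.07 ± 0.11 (SE). Of 12 immediate early genes, 4 were lower and none higher, with -0.15 ± 0.11 for *Ier3* and -0.09 ± 0.10 for *Nr4a1* (SE). For KO against WT controls, 3 of the 10 other KLF genes were higher by unadjusted p and none lower, against 7.54% of all genes. In the difference of the PTX effect, KO minus WT, 2 of the 4 other C/EBP genes were higher and 1 of the 10 KLF genes lower, against 6.30%.

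Injury effector genes, which act downstream of these factors, had the lowest median log2 fold change of the pathway lists for PTX in WT mice. Among the marker lists, skeletal muscle at -2.79 and neutrophils at -0.99 were lower still. Their 22 genes summed to 603, 915 and 318 FPKM in WT controls 1, 2 and 3, and to 286 to 495 FPKM elsewhere. All 19 that were tested had a negative log2 fold change for PTX in WT mice, with a median of -0.87. With WT control 3 as the only WT control, values without a test, *Npy* went from -2.48 to 0.67 and *Cckbr* from -1.89 to 0.13, while *Sprr1a* went from -3.10 to -0.74, *Ecel1* from -2.44 to -0.53 and *Nts* from -1.09 to -0.22. In the full fit, by unadjusted p 14 were lower and none higher, against 13.5% of all genes, and DESeq2 called 5, all lower, against 2.05%. *Gap43*, a growth-cone protein, had -0.50 ± 0.16 and *Hspb1*, a small heat shock protein, -0.52 ± 0.13 (SE, edgeR adjusted p = 0.276 and 0.222). For KO against WT controls 8 were lower by unadjusted p, against 7.54% of all genes, and for PTX in KO mice 1 was, against 4.32%. DESeq2 called 0 and 1 (lower) of the 19 there, against 0.278% and 0.192% of all genes. For PTX over both genotypes 9 were lower by unadjusted p, against 9.36%, and 2 by DESeq2, against 0.829%. With WT control 3 as the only WT control, the KO against WT values, which have no test, were positive for *Npy* at 1.53, *Cckbr* at 1.20, *Ecel1* at 0.78 and *Nts* at 0.58, against -1.76, -0.92, -1.21 and -0.36 in the full fit. In the difference of the PTX effect, KO minus WT, 7 of the 19 were higher by unadjusted p, against 6.30% of all genes, with a median of 0.88. In female against male libraries 17 of the 19 were lower by unadjusted p, against 8.44% of all genes, and DESeq2 called 8, against 0.815%. The libraries labelled female were below all male libraries for 5 of the 19, *Sprr1a*, *Nts*, *Flrt3*, *Gpr151* and *Hspb1*, against 0.583% of all genes.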

How the data were processed

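DRG RNA of 11 mice was sequenced as poly(A) libraries with a strand-specific kit. Per the labels, the submitters' processing notes name cutadapt, FastQC, HISAT2, StringTie and the mm10 build, with no versions. The authors deposited FPKM values, scaled for length and library size, and unnormalized estimated counts. The counting of overlapping antisense genes is not given in the sources used here.

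Counts were rounded and tested with edgeR 4.0.16 (R 4.3.3, TMM, quasi-likelihood). The filter was a mean of 0.5 FPKM or more over all libraries, and the Benjamini-Hochberg adjustment covered all of them. Each SE was derived from the fold change and its F statistic. DESeq2 1.42.0 and limma 3.58.1, other filters, scalings and covariates, and each library left out were alternatives. The scripts were run on simulated data first. By number, deviations from the group means of WT and KO controls correlated at 0.11, 0.12 and 0.23, so the numbers of the labels were taken to pair these mice, and a replicate block was an alternative.

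The members and lists were chosen with earlier results of these data known. Named were the 9 members, *Gpr37l1*, the 2 highest genes of each pathway list and the 2 genes most like each member. *Socs3*, *Xist*, *Ddx3y*, *CT010467*, *mt-Co1*, *Npy*, *Ecel1*, *Nts*, *Flrt3*, *Gpr151*, *Tubb3* and *Calca* were named after their values were seen. Each numbered library was taken as 1 mouse, so p-values measure the spread between these libraries.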

Additional observations from a re-analysis of the deposited data

Results flagged for a closer look

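*Klf4* was the 1 factor higher in every WT PTX mouse and lower in every KO PTX mouse than in all controls of that genotype. This pattern was found in 0.444% of all tested genes. The opposite pattern would have been flagged too and is not in that share. Taken singly, the WT part of the pattern was found in 6.81% of all genes and the KO part in 10.4%. All 3 WT PTX mice, at 2.03, 2.09 and 2.03 FPKM, were above the WT controls, and both KO PTX mice, at 1.47 and 1.70 FPKM, were below the KO controls, of which the lowest had 1.73 FPKM. The difference of the log2 fold changes, KO minus WT, was -0.95 ± 0.30 (SE), and edgeR's test of it gave an adjusted p of 0.724. Over 23 alternatives it ranged from -1.15 to -0.61, with an edgeR adjusted p of 0.352 at the lowest (without WT control 3). *Klf4* was flagged for its separation in these same libraries, so a kept sign could be foreseen and is no support. Markers of other cells differed as well, some in the direction of *Klf4* and some in the opposite one. In the same difference all 6 markers of fibroblasts and meninges were negative, with a median of -0.51 and 2 lower by unadjusted p, against 6.30% of all genes. The 6 endothelial markers had a median of -0.25 there, with 1 lower by unadjusted p. Central glia markers had 3 of 4 tested higher, with a median of 3.42, and macrophage markers 3 of 8 higher, with a median of 0.41. Their part in the result was not tested.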

How the results depend on the processing

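In the 6 planned comparisons no member passed the threshold under any alternative, by edgeR, limma or DESeq2, the replicate block included, where the count was 0 as well. Leaving out each library in turn also gave 0. Over 54 fold changes of members and 1278 alternatives, 67 were counted with the opposite sign to the reported value, and 18 of the fold changes had no such count. Among these 18 are *Sox11* for KO against WT after PTX and *Klf6* for KO against WT controls. Both were reported as 0.00 and have no sign to turn, and they ran from -0.19 to 0.37 and from -0.14 to 0.19. In female against male, the count of members was 1 (*Atf3*) with no filter on low values and 1 with DESeq2. The log2 fold change of *Atf3* for PTX in WT mice ran from -2.55 to -0.61, and from -2.51 to -1.52 with 1 library left out. That of *Jun* ran from -0.55 to 0.22 and that of *Cebpd* from -0.92 to 0.09.

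Counts over all genes depended on the test: edgeR called 1 gene for PTX in WT, and DESeq2 called 309. Without WT control 3 edgeR called 30. For PTX over both genotypes edgeR called 2 and DESeq2 125, and edgeR 18 without WT control 2. For PTX in KO the counts were 1 and 29, for KO against WT controls 1 and 42, after PTX 2 and 10, for the difference between genotypes 1 and 12, and for female against male 6 and 123. With 1 library left out edgeR called up to 7 for PTX in KO (without KO control 2 or KO PTX mouse 2), 4 for KO against WT controls (without KO control 3), 7 after PTX and 6 for the difference (both without KO PTX mouse 2), and 12 for female against male (without KO control 3). The cause was not tested.

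The rule used for pairing by number asks for 3 pairs over 0.1. WT and KO controls met it, and WT controls with WT PTX mice did not, at -0.03, -0.16 and 0.04. KO PTX mice have only the numbers 2 and 3, so no comparison with them could meet the rule. Their pairs were at 0.07 and 0.09 with KO controls and at 0.05 and 0.16 with WT PTX mice. Over all groups, deviations from group means correlated at -0.16 to 0.25 in 15 pairs with the same number, 7 of them over 0.1, and at -0.25 to 0.17 in 30 other pairs, and 6 of 11 libraries correlated best with their own number. With the replicate block, edgeR called 1 gene for PTX in WT mice, and *Atf3* was at -2.08 (adjusted p = 0.252). For KO against WT controls, where pairs were assumed, the block gave -1.53 for *Atf3* (edgeR adjusted p = 0.682) and 1 gene called. The block changed no other call on a member. Groups of 2 or 3 mice, 1 female in each, limit what can be detected.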
